A study of Mus musculus with 18 samples.

Results

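Glucocorticoid response genes are genes whose transcription rises when a corticosteroid hormone activates its receptor, and their levels in the mouse hypothalamus are described here over 18 arrays. The set was a list of 10 genes: Fkbp5, Sgk1, Tsc22d3, Klf9, Zbtb16, Mt1, Mt2, Pdk4, Cdkn1a and Errfi1. Each gene was read at its brightest probeset annotated to 1 gene only, which gave 9 measured members among 19937 genes with such a probeset. The only Cdkn1a probeset was annotated to another gene as well, so Cdkn1a was not reported. Each of the 9 measured members had 1 such probeset. The arrays hold total RNA of dissected hypothalami from wild-type mice and mice with a mutated Wfs1 gene, the gene of the endoplasmic reticulum protein wolframin. The strain was given as 129SV for each sample and as 129S6 for the series. The allele, age, sex, any treatment, the hour of dissection and any pooling of animals were not given in the sources used here.

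Genotype was stated in 2 ways that contradict each other. The sample titles end in ko for 10 arrays and in wt for 8, while the genotype field says KO for 9 and WT for 9. An array is therefore named here by its ending, its field and a replicate number, which gives the groups ko/KO (n = 5), ko/WT (n = 5), wt/KO (n = 4) and wt/WT (n = 4). The Wfs1 level followed neither label: it was 7.86 to 8.07 on 10 arrays and 8.36 to 8.72 on 8, and both ranges held arrays of all 4 groups. All levels are deposited log2 values, on which a difference of 1 is a doubling, and a level of one gene is not comparable with that of another. The array ko/WT 4 stood apart by Xist, an RNA of the inactive X chromosome, at 5.93 against 10.31 to 10.79 elsewhere. The array wt/WT 3 stood apart by Ttr, the choroid plexus gene of transthyretin, at 12.80 against 8.01 to 10.62 elsewhere. Of 12 hypothalamic identity markers 11 were measured, among them Pmch, the melanin-concentrating hormone precursor of the lateral hypothalamus, at 11.36 to 12.10. The median of an array lay between 7.10 and 7.19, and no member had a value under the lower quartile of its array. In tissue of many cell types, fewer cells of a type and less RNA per cell cannot be told apart.

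Corticosterone, the main glucocorticoid of mice, enters cells and binds the glucocorticoid receptor and the mineralocorticoid receptor, which move to the nucleus and act on DNA at glucocorticoid response elements. The hypothalamus starts the stress axis that drives corticosterone release and is itself a target of the hormone's negative feedback. Secretion follows a daily rhythm and rises within minutes of handling or stress. Most of the listed genes also answer to other signals: Mt1 and Mt2 to metals, Pdk4 to fasting, Errfi1 to growth factors and Cdkn1a to p53.

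Promoter sequence is shown for Sgk1, Mt1 and Mt2, whose windows hold full glucocorticoid or repeated metal response elements. Promoter windows of 300 bases, from 250 before to 50 after an annotated start, came from RefSeq on GRCm38.p6. They covered 8 of the 9 members with 16 windows, and Zbtb16 was not among them. The full element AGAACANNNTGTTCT was present in 1 of the 16 windows, at an Sgk1 start, and in 0.00913% of 32851 windows of all genes. Its half-site AGAACA, searched on both strands and contained in the full element, was present in 19% of all windows and in 4 of the 16, of which 3 were at Sgk1 starts and 1 at a Tsc22d3 start. The metal response element, searched as TGCACNC or TGCGCNC on both strands, matched 3 times in the Mt1 window, 4 times in the Mt2 window and 1 time in another Sgk1 window, which is not shown. The Pdk4 window held 0 matches of these motifs. At least 1 such match was present in 25.7% of all windows, and 3 or more in 1.97%. Each sequence below runs 5′ to 3′ on the plus strand and ends 30 bases past the start, with the Sgk1 stretch at chr10:21993640-21993919, Mt1 at chr8:94178839-94179118 and Mt2 at chr8:94172368-94172647. Capitals mark the full glucocorticoid response element in Sgk1 and the metal response elements in Mt1 and Mt2.
Sgk1: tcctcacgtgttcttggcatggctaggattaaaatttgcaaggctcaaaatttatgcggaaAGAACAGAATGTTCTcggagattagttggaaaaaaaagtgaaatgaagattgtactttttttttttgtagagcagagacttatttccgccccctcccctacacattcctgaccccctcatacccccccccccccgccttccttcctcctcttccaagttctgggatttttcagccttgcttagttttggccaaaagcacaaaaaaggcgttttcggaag
Mt1: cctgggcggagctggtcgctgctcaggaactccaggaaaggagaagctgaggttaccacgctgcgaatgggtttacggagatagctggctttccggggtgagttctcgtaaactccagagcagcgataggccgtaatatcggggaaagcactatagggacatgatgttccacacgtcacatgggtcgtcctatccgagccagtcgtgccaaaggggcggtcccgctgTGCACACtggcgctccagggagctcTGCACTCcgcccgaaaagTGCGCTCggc
Mt2: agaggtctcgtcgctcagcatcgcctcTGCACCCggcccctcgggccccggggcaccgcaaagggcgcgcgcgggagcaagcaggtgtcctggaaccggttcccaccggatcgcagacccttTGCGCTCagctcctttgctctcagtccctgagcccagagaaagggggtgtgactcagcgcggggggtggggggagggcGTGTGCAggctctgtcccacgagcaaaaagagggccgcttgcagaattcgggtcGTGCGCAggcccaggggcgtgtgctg
A match is a description of these letters only. Sgk1 has 6 annotated windows, and its probeset does not say which start was in use.

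Sgk1, a kinase gene that regulates ion channels and transporters and responds early to corticosteroids, varied most among the members. It spanned 8.29 to 9.41, a 2.17-fold range, and its SD over the 18 arrays of 0.347 was larger than that of 99.1% of all genes. The ko/KO arrays 1 to 5 read 8.71, 8.29, 8.79, 9.20 and 8.79, and the ko/WT arrays 1 to 5 read 9.32, 8.34, 9.29, 9.18 and 9.13. The wt/KO arrays 1 to 4 read 8.59, 8.71, 9.38 and 8.78, and the wt/WT arrays 1 to 4 read 9.41, 9.01, 8.58 and 8.93. High and low levels occurred within every label pair, so the 4 groups overlapped.

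Pdk4, a mitochondrial kinase that turns off the pyruvate dehydrogenase complex and so spares glucose, spanned 7.10 to 7.85 with an SD larger than that of 85.4% of genes. The ko/KO arrays read 7.54, 7.10, 7.34, 7.53 and 7.25, and the ko/WT arrays 7.66, 7.36, 7.55, 7.60 and 7.65. The wt/KO arrays read 7.33, 7.26, 7.85 and 7.50, and the wt/WT arrays 7.76, 7.31, 7.28 and 7.46. The groups overlapped here too. The arrays that were highest in Sgk1, wt/WT 1, wt/KO 3, ko/WT 1 and ko/WT 3, were all at 7.55 or above in Pdk4. The arrays that were lowest in Sgk1, ko/KO 2, ko/WT 2, wt/WT 3 and wt/KO 1, were all at 7.36 or below.

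Sgk1 and Pdk4 rose and fell together over the arrays, with Pearson's r = 0.833 (permutation p = 4e-05) and Spearman's rho = 0.788 (permutation p = 0.00019), both two-sided over 18 arrays. Without ko/KO 2 and wt/WT 1, the arrays farthest from the Sgk1 median, r was 0.754. It was 0.852 over the 10 arrays with low Wfs1, 0.893 over the 8 with high Wfs1, and 0.818 without ko/WT 4 and wt/WT 3. Among 19936 other genes, Sgk1 was the gene closest to Pdk4, and Pdk4 was second closest to Sgk1. In a limma fit with the Pdk4 level as covariate, Sgk1 passed the threshold of 0.05 over all genes (adjusted p = 0.019), in a fit that called 0.00502% of genes in the rising direction. With the Sgk1 level as covariate, Pdk4 did not pass it (adjusted p = 0.077). The first call was kept when 13 of the 18 arrays were left out in turn and lost without wt/WT 1, ko/KO 2, ko/WT 1, wt/KO 2 or wt/KO 3, and the adjusted p ranged from 0.0092 to 0.374. It was also lost without both arrays that stand apart (limma adjusted p = 0.104) and in residuals from the label groups (limma adjusted p = 0.116). Without the dimmest 40% of genes, an alternative added after seeing the data, both directions were called (limma adjusted p = 0.018 for Pdk4 and 0.0063 for Sgk1). Of the 72 ordered member pairs tested over all genes, Sgk1 with Pdk4 as covariate was the only one called.

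The gene closest to Sgk1 was Nfkbia, which encodes the NF-κB inhibitor IκBα and is a glucocorticoid target outside the 10. Nfkbia read 8.34, 8.0, 8.25, 8.35 and 8.21 on the ko/KO arrays and 8.58, 7.78, 8.54, 8.33 and 8.40 on the ko/WT arrays. It read 8.25, 8.19, 8.64 and 8.15 on the wt/KO arrays and 8.55, 8.27, 8.21 and 8.21 on the wt/WT arrays. Its lowest values were those of ko/WT 2 and ko/KO 2, the same arrays that were lowest in Sgk1. The relation had r = 0.894 and rho = 0.865 over 18 arrays, both with a permutation p of 1e-05, the smallest that 100000 resamples can give. It was r = 0.868 without ko/KO 2 and wt/WT 1, 0.896 over the arrays with low Wfs1 and 0.897 over those with high Wfs1. Nfkbia rose by 0.54 per unit of Sgk1 (SE 0.074, limma adjusted p = 0.0052), and this was the only call among 19936 genes. It was kept in all 18 fits that leave out 1 array, with an adjusted p between 0.0027 and 0.037. Nfkbia was also the non-member closest to Pdk4, with r = 0.766, followed by Ddit4, an mTORC1 inhibitor induced by stress and glucocorticoids, with r = 0.735.

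**Figure D1:**
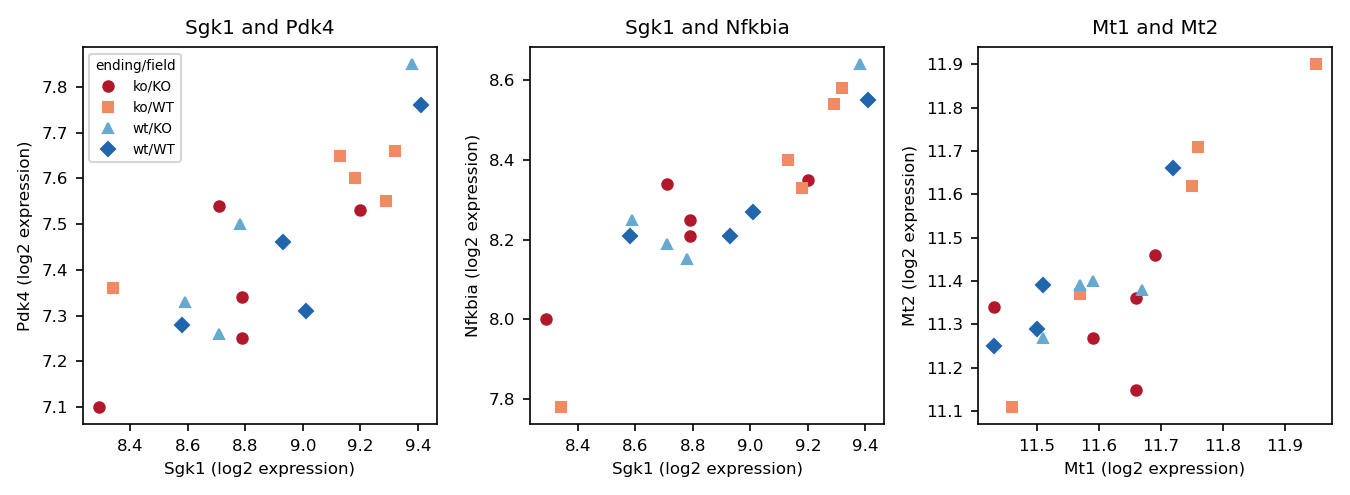
Each point is 1 of 18 arrays, placed by the log2 levels of Sgk1 and Pdk4 (left), Sgk1 and Nfkbia (middle) and Mt1 and Mt2 (right), with colour and shape for the label pair. The points of the first and second panels rise from ko/KO 2 and ko/WT 2 at the low end of Sgk1 to wt/WT 1 and wt/KO 3 at the high end, and r is 0.833, 0.894 and 0.818 from left to right.

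Mt1 and Mt2, the metallothioneins that bind zinc and copper and are induced by both metals and glucocorticoids, lie next to each other on chromosome 8 with 0 annotated genes between them. Mt1 read 11.66, 11.43, 11.59, 11.69 and 11.66 on the ko/KO arrays and 11.75, 11.57, 11.95, 11.76 and 11.46 on the ko/WT arrays. It read 11.57, 11.59, 11.67 and 11.51 on the wt/KO arrays and 11.43, 11.51, 11.72 and 11.50 on the wt/WT arrays. The highest value was that of ko/WT 3, and the groups overlapped.

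Mt2 read 11.36, 11.34, 11.27, 11.46 and 11.15 on the ko/KO arrays and 11.62, 11.37, 11.90, 11.71 and 11.11 on the ko/WT arrays. It read 11.39, 11.40, 11.38 and 11.27 on the wt/KO arrays and 11.25, 11.39, 11.66 and 11.29 on the wt/WT arrays. The arrays ko/WT 3, ko/WT 4, wt/WT 3 and ko/WT 1 were the 4 highest in Mt2, and the same arrays were the 4 highest in Mt1. The pair had r = 0.818 (permutation p = 6e-05) and rho = 0.745 (permutation p = 0.00067) over 18 arrays. Without ko/WT 3 and ko/WT 4, r was 0.635, and without both arrays that stand apart it was 0.794. Neither direction was called over all genes by limma (adjusted p = 0.256 with Mt1 as covariate and 0.808 with Mt2), in fits that called 0.0% of genes. The sequences of these paralogs are close, and whether their probesets tell them apart was not tested. Mt1 and Mt2 had r of 0.324 and 0.229 with Sgk1 and of 0.201 and 0.101 with Pdk4. The part of metals or of corticosterone in the levels of this pair was not tested.

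Fkbp5, a co-chaperone that lowers hormone binding by the receptor and is itself induced by it, spanned 8.04 to 8.59. It read 8.23, 8.04, 8.38, 8.40 and 8.31 on the ko/KO arrays and 8.43, 8.2, 8.59, 8.48 and 8.18 on the ko/WT arrays. It read 8.44, 8.46, 8.33 and 8.37 on the wt/KO arrays and 8.45, 8.38, 8.26 and 8.22 on the wt/WT arrays. The lowest array, ko/KO 2, was also the lowest in Sgk1 and Pdk4, and the highest, ko/WT 3, was also the highest in Mt1 and Mt2. Fkbp5 had r = 0.580 with Sgk1, 0.555 with Mt1 and 0.521 with Mt2, and 0.366, 0.203 and 0.380 without ko/KO 2 and ko/WT 3. The relation with Sgk1 was r = 0.443 without ko/KO 2 alone (permutation p = 0.076, against 0.011 over all arrays).

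Tsc22d3, the glucocorticoid-induced leucine zipper gene, spanned 7.52 to 7.97, with the highest value on ko/WT 4, the array with little Xist. Tsc22d3 lies on the X chromosome, as Xist does. Its closest member was Pdk4, at r = 0.514 over all arrays and 0.467 without both arrays that stand apart.

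Klf9, a transcription factor gene with a strong response to corticosteroids, spanned 9.45 to 9.74, and its SD of 0.085 was larger than that of 10.8% of genes. Within this narrow range Klf9 had r = 0.620 with Pdk4 and 0.576 with Mt1, beside 5.27% of all genes with an r above 0.5. Neither was called with Klf9 as covariate (limma adjusted p = 0.567 for Pdk4 and 0.611 for Mt1). Zbtb16, which encodes the zinc finger repressor PLZF, spanned 8.19 to 8.90. Its highest value, on wt/WT 1, lay 0.63 above the next wt/WT array. Errfi1, a feedback inhibitor of the EGF receptor, spanned 9.08 to 9.50, and the groups overlapped for each of these 3 genes.

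**Figure D2:**
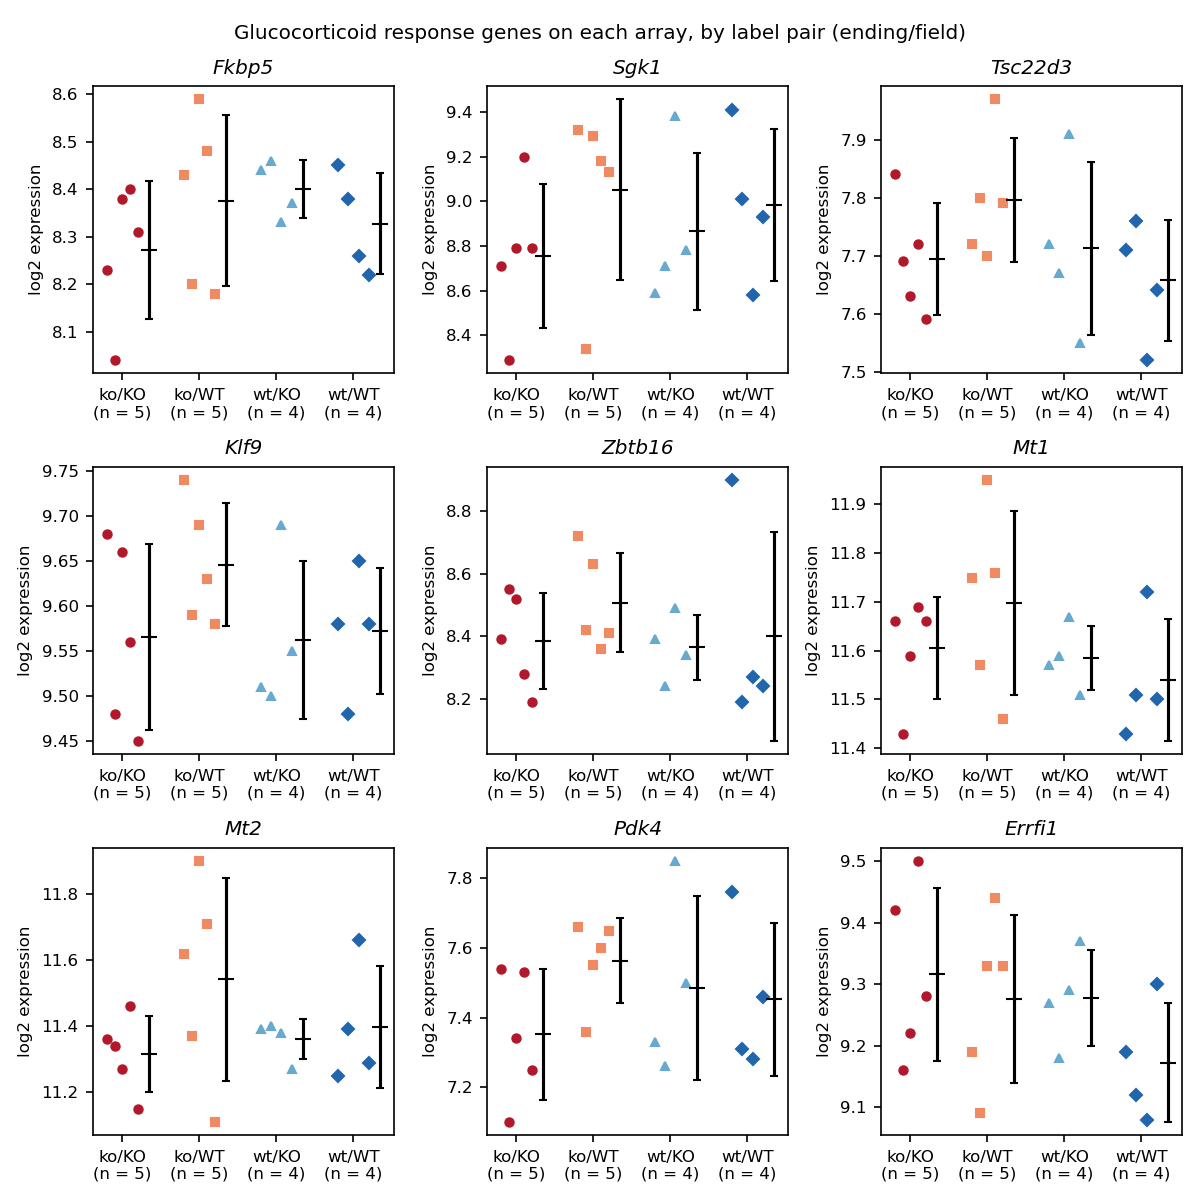
Log2 levels (vertical axes, each with its own range) of the 9 measured members on every array, by label pair (ko/KO and ko/WT, n = 5; wt/KO and wt/WT, n = 4); bars show the mean ± SD of each group. The ranges of the groups overlap in every panel, and the spread is widest for Sgk1, from 8.29 to 9.41.

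Over all 36 pairs of members, 35 correlations were positive, and the exception was Zbtb16 with Errfi1 at r = -0.132. The median r was 0.323, beside 0.023 between the members and all other genes, of which 53.3% were positive. The median ranged from 0.277 to 0.342 when 1 array was left out. An r above 0.5 was reached by 9 pairs, beside 3.60% of the members' relations with all genes. Of the 36 pairs 11 had an unadjusted permutation p under 0.05, where limma gave an unadjusted p under 0.05 for 7.60% of the members' relations with all genes. The pairs share genes and arrays, so they are not independent. The median r was 0.508 over the 8 arrays with high Wfs1, with 28 positive pairs, and 0.317 over the 10 arrays with low Wfs1, with 32 positive pairs. The members' r with all other genes was not computed within these sets, so these medians and counts have no such background. After each label pair's mean was taken out, 30 pairs were positive.

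The relations were uneven among the members. By its median r with the other members, Pdk4 was the most central at 0.462, followed by Klf9 at 0.459, Sgk1 at 0.393, Mt1 at 0.304 and Fkbp5 at 0.284. Errfi1, Tsc22d3, Mt2 and Zbtb16 had medians of 0.259, 0.223, 0.195 and 0.183. Klf9 had an r of 0.437 to 0.620 with each of Sgk1, Pdk4, Mt1 and Mt2, while the relations between the kinase pair and the metallothionein pair were weaker. Fkbp5 and Tsc22d3, both much used as readouts of glucocorticoid action, had r = 0.064 over all arrays. Their r was 0.622 over the arrays with low Wfs1 and 0.465 over those with high Wfs1, and the medians of the pair moved in opposite directions between those sets.

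**Figure D3:**
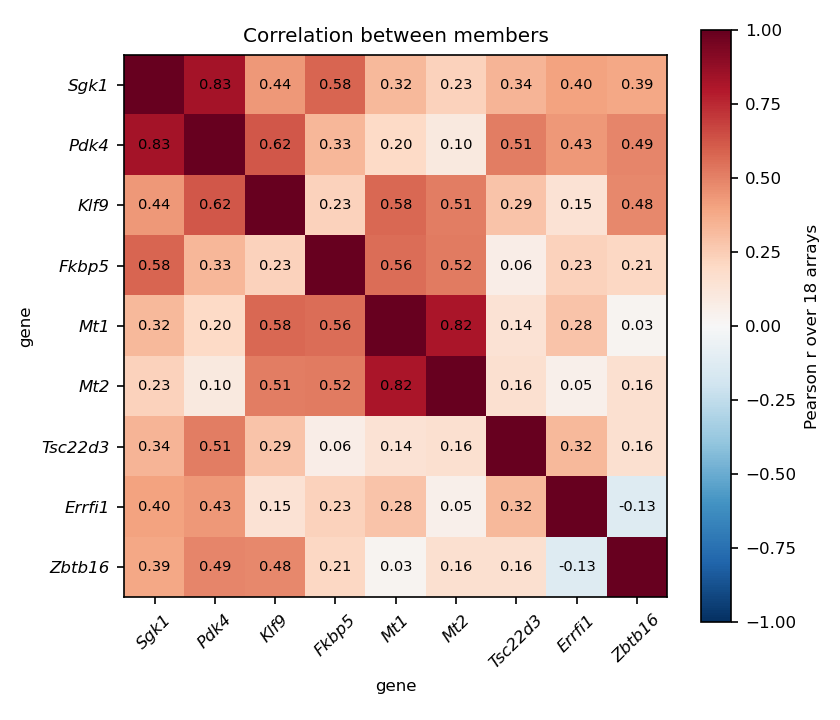
Pearson r over 18 arrays for each pair of the 9 measured members (rows and columns), coloured from -1 (blue) to 1 (red). The highest values are those of Sgk1 with Pdk4 (0.833) and Mt1 with Mt2 (0.818), and 1 pair is negative.

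Each member's pattern was also set beside those of the genes outside the list, with the other members and predicted genes passed over. The 3 closest were Nfkbia, Gadd45g and Mertk for Sgk1 (r = 0.894, 0.775 and 0.751), and Nfkbia, Ddit4 and Ankub1 for Pdk4 (r = 0.766, 0.735 and 0.727). They were Tfe3, Ube2cbp and Plcl2 for Fkbp5 (r = 0.837, 0.805 and 0.792) and Mapk14, Sin3b and Prickle2 for Tsc22d3 (r = 0.756, 0.747 and 0.731). For Mt1 they were Ak3, Cmtm3 and Ephb3 (r = 0.845, 0.840 and 0.786), and for Mt2 Tnfrsf1a, Mfsd2a and Cmtm3 (r = 0.777, 0.766 and 0.742). Cmtm3 was thus close to both metallothioneins. For Errfi1 they were Man1a, Anxa3 and Ivns1abp (r = 0.842, 0.795 and 0.793), and for Zbtb16 Tbc1d10b, Srxn1 and Ints1 (r = 0.860, 0.846 and 0.841). For Klf9 they were Dok7, Letmd1 and Uqcrc1 (r = 0.919, 0.835 and 0.817).

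Dok7, an activator of the muscle kinase MuSK at the neuromuscular junction, was the only gene called with Klf9 as covariate (slope 1.60, SE 0.23, limma adjusted p = 0.014). That call was kept in 13 of 18 fits that leave out 1 array, with an adjusted p of up to 0.133, and was lost without ko/WT 1, ko/WT 3, wt/KO 3, wt/WT 2 or ko/KO 5. It was also lost with quantile normalization (adjusted p = 0.116) and without both arrays that stand apart (adjusted p = 0.083), and in residuals from the label groups (adjusted p = 0.102). With Pdk4 as covariate, Olfr960, an olfactory receptor gene, fell (slope -2.11, SE 0.33, limma adjusted p = 0.019), and this call was lost without wt/WT 1, ko/KO 2, wt/KO 2 or wt/KO 3 (adjusted p up to 0.382). It was lost as well without both arrays that stand apart (limma adjusted p = 0.085) and kept in residuals from the label groups (limma adjusted p = 0.0019). No gene was called with Fkbp5, Tsc22d3, Zbtb16, Mt1, Mt2 or Errfi1 as covariate by limma, where 913, 1206, 2533, 1333, 804 and 3774 genes had an unadjusted p under 0.05. Without wt/KO 4 alone, 223 genes were called with Errfi1.

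A list of 25 further glucocorticoid targets, of which 24 were measured, showed how far the relation extends beyond the members. The median r of the 24 was 0.346 with Pdk4, 0.325 with Klf9 and 0.315 with Sgk1, beside medians over all genes of 0.0091, 0.063 and 9.32e-05. Positive r were found in 20, 22 and 18 of the 24, beside 51.6%, 59.9% and 50.03% of all genes with the same members. Nfkbia with Sgk1 was the 1 call. With Fkbp5 the median was 0.119 and with Zbtb16 0.085, so the list was less close to these members. Mfsd2a, the lipid transporter of the blood-brain barrier, was positive with all 9 members, as were Nfkbia, Ddit4 and Txnip. The share of all genes positive with all 9 was not counted. Mfsd2a was highest with Mt1 (r = 0.774), Mt2 (0.766) and Fkbp5 (0.722). It read 9.15 on ko/WT 3, 9.05 on ko/WT 1 and on ko/WT 4, and 8.2 on ko/KO 2, which was its lowest array. Sult1a1, a sulfotransferase gene, had r = 0.761 with Fkbp5, but 0.084 over the arrays with low Wfs1 and 0.955 over those with high Wfs1. Bcl6, a transcriptional repressor gene, had r = 0.702 with Fkbp5, and Txnip, which encodes a thioredoxin inhibitor, had r = 0.719 with Errfi1. Per1, a clock gene with a glucocorticoid response element, had r = 0.602 with Zbtb16 and 0.447 with Sgk1. Some targets ran the other way, as Cdkn1c, a cell cycle inhibitor gene, did at r = -0.648 with Sgk1 and Cebpb at -0.544 with Errfi1.

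**Figure D4:**
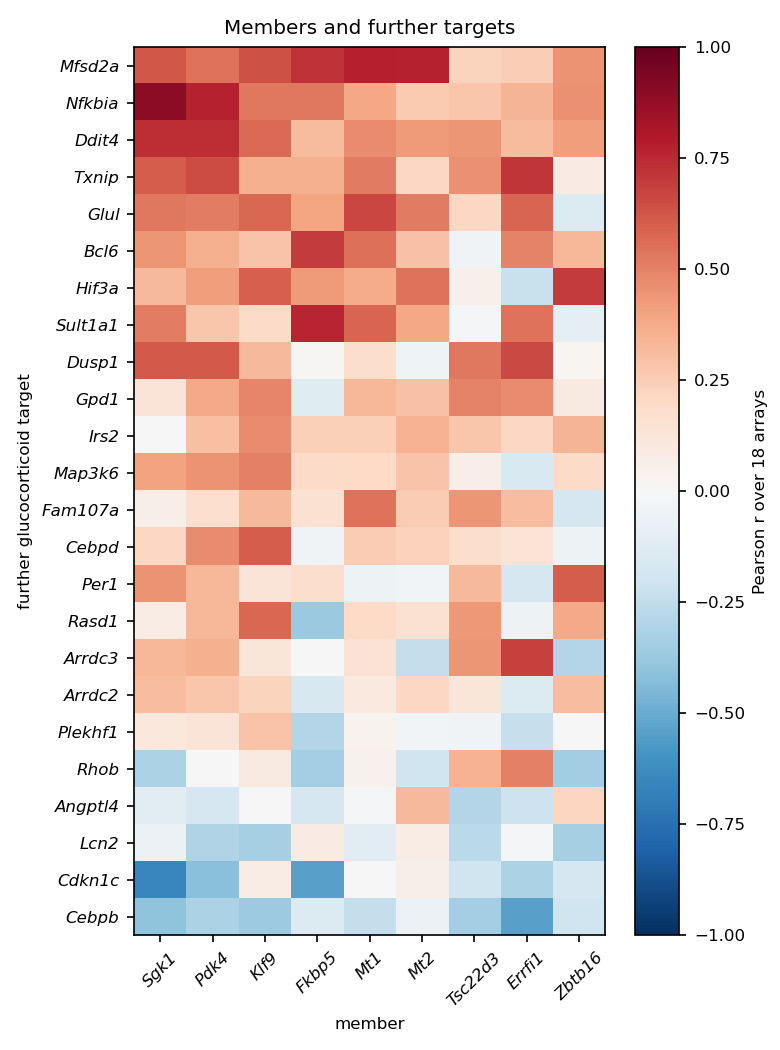
Pearson r over 18 arrays of each of 24 further glucocorticoid targets (rows, ordered by their mean r over the members) with the 9 measured members (columns), coloured from -1 (blue) to 1 (red). Nfkbia with Sgk1 is the strongest cell at 0.894, and Mfsd2a, Nfkbia, Ddit4 and Txnip are positive with every member.

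The genes upstream of the response gave no call with any member over all arrays, and their r differed from gene to gene. Nr3c1, the glucocorticoid receptor gene, spanned 9.62 to 10.09 and had r of -0.062 with Sgk1, 0.054 with Pdk4, -0.230 with Fkbp5 and -0.434 with Mt2. Nr3c2, the mineralocorticoid receptor gene, spanned 8.19 to 8.65 and had r of -0.077 with Sgk1. Hsd11b1, whose enzyme regenerates active corticosterone inside cells, spanned 6.59 to 7.08 and had r of 0.473 with Tsc22d3 and -0.012 with Sgk1. Of 10 receptor, chaperone and cofactor genes 8 were measured, with 0 called with any member. Among the chaperone genes, Fkbp4, a co-chaperone of the receptor, had r of 0.688 with Zbtb16, and Ptges3, which encodes the co-chaperone p23, had r of -0.682. Hsp90aa1, a gene of the chaperone Hsp90, had r of -0.552 with Zbtb16 and 0.540 with Errfi1, and Stip1, which encodes a partner of Hsp90, had -0.521 and 0.554. An r above 0.5 was reached by 6.07% of all genes with Zbtb16 and by 7.10% with Errfi1. The share of all genes below -0.5 was not counted. Of 10 genes of hormone supply and the stress axis 9 were measured, also with 0 called. Pomc, the precursor gene of ACTH, had r of -0.514 with Fkbp5, and Crhbp, which encodes the binding protein of corticotropin-releasing hormone, had 0.497. Dbp, a clock output gene, had r of -0.700 with Sgk1 (limma adjusted p = 0.9997) and -0.648 with Fkbp5, and was called with neither. Among other clock genes, Hlf had -0.429 with Sgk1 and -0.592 with Fkbp5, and Tef had 0.109 and 0.244.

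Other lists moved with single members. The 12 immediate early genes, induced by neuronal activity, had a median r of 0.387 with Sgk1 and 0.389 with Pdk4, no smaller than those of the glucocorticoid targets. Dusp1, a phosphatase gene that is on both lists, had r of 0.615 with Sgk1 and 0.610 with Pdk4. The part of neuronal activity in the levels of Sgk1 and Pdk4 was not tested. The mean of the PPAR and fasting genes called Mt1 (r = 0.635, limma adjusted p = 0.037), in a fit that called 14.9% of all genes. The same list gave Pdk4 r = 0.229 (adjusted p = 0.473). The mean of the 10 astrocyte markers called Errfi1 (r = 0.596, limma adjusted p = 0.033), in a fit that called 33.2% of all genes. The mean astrocyte level lay between 10.22 and 10.49 on the 18 arrays, and its part in the Errfi1 level was not tested. These were the only member calls over 21 lists, and both shares of all genes are far from 0, so neither count sets the members apart from other genes. The mean of the receptor list was related to 33.0% of all genes but to 0 members by limma. The same held for the pituitary markers (26.3% of genes), the endothelial markers (15.6%), the clock genes (8.37%) and the p53 targets (5.31%). The means of oligodendrocyte, pan-neuronal, meningeal, hypothalamic and thalamic markers were related to 0.236%, 0.171%, 0.0702%, 0.0151% and 0.00502% of genes, and those of the remaining 9 lists to 0.0%, also with 0 members. The calls depended on single arrays: none was left without ko/KO 2 or without ko/KO 4, 1 without ko/KO 1, wt/WT 1, ko/WT 3 or wt/KO 4, and 5 were made without wt/WT 3. Without wt/WT 2 the PPAR list called 0 members and the receptor list 1, and the same held with the mean of a gene's probesets. Without wt/KO 1 the p53 list called 1 member as well. With quantile normalization both calls were lost, and the 1 call was Zbtb16 with the receptor list (r = -0.574, limma adjusted p = 0.046).

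With the 12 cell marker lists, Sgk1 had r between -0.327 for hypothalamic identity and 0.216 for pan-neuronal markers, and Pdk4 between -0.373 for pituitary and 0.338 for endothelial markers. Mfsd2a is itself an endothelial gene, and the endothelial mean had r of 0.422 with Mt1, 0.069 with Mt2 and 0.180 with Fkbp5. Its level ran from 8.08 to 8.43, and its part in the relation of Mfsd2a to these members was not tested. The spread of values within an array, an SD of 1.93 to 2.04, was related to 24.8% of all genes by limma but to 0 of the 9 members, with Mt1 closest at r = 0.397.

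The study's question was the difference between mutant and wild-type hypothalami. By title ending, the members differed by 0.09 or less on the log2 scale (ko minus wt). The largest was Mt1, at 11.65 ± 0.15 (SD, n = 10) against 11.56 ± 0.10 (SD, n = 8), a difference of 0.09 (SE 0.06, limma adjusted p = 0.884). Limma called 0 of the 9 members and 0.0% of all genes, and at an unadjusted p under 0.05 it found 0 members beside 4.63% of genes. In the opposite direction from Mt1, Sgk1 differed by -0.02 (SE 0.15), and that sign changed without ko/KO 1, ko/KO 2, ko/WT 2, wt/KO 3 or wt/WT 1 (up to 0.05). The means of 6 members were higher under ko and those of 3 were lower, with a median difference of 0.050 beside 0.003 over all genes.

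By genotype field, Sgk1 read 8.80 ± 0.32 (SD, n = 9) under KO and 9.02 ± 0.36 (SD, n = 9) under WT, a difference of -0.22 (SE 0.14, limma adjusted p = 0.711). Mt2 read 11.34 ± 0.09 under KO and 11.48 ± 0.26 under WT (SD, n = 9 each), a difference of -0.14 (SE 0.08, limma adjusted p = 0.697). Pdk4 differed by -0.10 (SE 0.09) and Zbtb16 by -0.08 (SE 0.08). In all, 8 members were lower and Errfi1 was higher under KO, with a median difference of -0.049 beside -0.0056 over all genes. The share of all genes that were lower was not counted. The members are correlated with each other, so their signs are not independent. Limma called 0 members and 0.0% of genes, and 6.95% of genes had an unadjusted p under 0.05. Of the 24 further targets 17 were lower, with a median difference of -0.027. None of the members' differences passed the limma threshold, so none is taken as a difference between the labels.

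On the 9 arrays whose labels agree, ko/KO minus wt/WT, the differences were -0.23 for Sgk1 (SE 0.17, limma adjusted p = 0.595) and 0.14 for Errfi1 (SE 0.09, limma adjusted p = 0.528). Limma called 0 members and 0.0% of genes, with 0 members and 11.1% of genes at an unadjusted p under 0.05. On the 9 whose labels contradict, ko/WT minus wt/KO, Sgk1 differed by 0.19 (SE 0.21) and Mt2 by 0.18 (SE 0.13), both with a limma adjusted p of 0.9998. Again 0 members and 0.0% of genes were called, with 0 members and 2.74% of genes at the unadjusted level. Sgk1 thus took opposite signs, and neither difference passed the test. The interaction of ending and field was below 0 for all 9 members, with a median of -0.16 beside -0.01 over all genes. Limma called 0 of the 9 members and 0.0% of genes (0 members and 5.18% of genes at the unadjusted level). The share of all genes below 0 was not counted, and the members' signs are not independent. Among other lists, 6 of 6 metal response genes and 8 of 9 endothelial markers were below 0, and 9 of 9 choroid plexus markers were above.

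The sets of arrays with low and high Wfs1 are not labelled groups, so they were described without a test. No member's ranges were separate between them, as was the case for 0.015% of all genes. Over all 18 arrays Fkbp5 had the largest shift among the members, from a median of 8.42 (8.26 to 8.59) on the 10 arrays under 8.2 in Wfs1 to 8.23 (8.04 to 8.48) on the 8 over it. That shift of -0.19 was larger in size than that of 97.5% of genes, and 5 of the 8 arrays with high Wfs1 lay below every array with low Wfs1. Tsc22d3 moved the other way, from a median of 7.71 (7.52 to 7.76) to 7.80 (7.63 to 7.97). That shift of 0.09 was larger in size than that of 80.0% of genes, and the shift of Zbtb16, 0.105, than that of 85.9%. For Tsc22d3, 5 of the 8 arrays lay above every array with low Wfs1. The share of all genes with 5 arrays so placed, below or above, was not counted. Sgk1 had almost equal medians of 8.90 and 8.86, and those of the metallothioneins differed by -0.05 each. Without ko/WT 4 and wt/WT 3 the medians differed by -0.22 for Sgk1 and by -0.21 for Fkbp5, and the difference of Pdk4 turned from 0.085 to -0.04.

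Within the sets, 18 relations of a member to Wfs1 were computed. The largest was Fkbp5 over the arrays with low Wfs1, at r = 0.622 (permutation p = 0.054) and rho = 0.438 (permutation p = 0.208), and r was 0.157 without the 2 arrays farthest from the median of Wfs1. Over the arrays with high Wfs1 Fkbp5 had r = -0.391 (exact permutation p = 0.337). Adjusted over the 18 relations, the p-values of r were 0.802 or more. No relation within a set passed the threshold, that of Fkbp5 included.

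**Figure D5:**
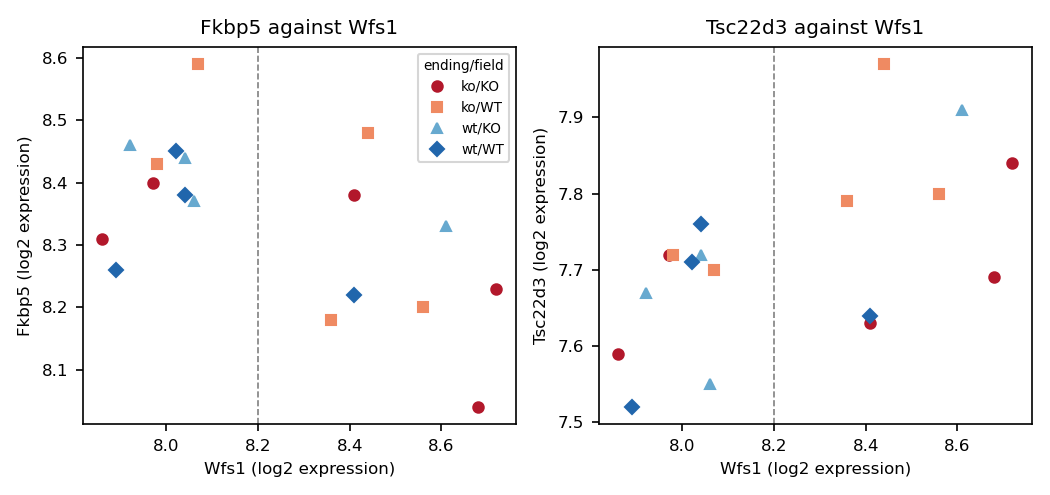
Log2 level of Fkbp5 (left) and Tsc22d3 (right) against that of Wfs1 on each of 18 arrays, with colour and shape for the label pair and a dashed line at 8.2. Fkbp5 is mostly lower and Tsc22d3 mostly higher to the right of the line, with overlap in both panels and all 4 label pairs on both sides.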

How the data were processed

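RNA of 18 hypothalamus samples was labelled with biotin for an array that reads whole transcripts, per the labels. The values were taken as normalized between arrays by the authors, since the medians of the arrays were nearly equal, and their log2 scale was read from the values as deposited. RMA and MAS5 appear in the submitters' processing notes without role or version, and scan dates were not given in the sources used here. Normalization between arrays removes differences in total signal. Its effect on small differences of dim genes is not known, since the role of RMA and MAS5 was not given.

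The platform annotation gave 21640 of 34760 probesets 1 gene symbol, 1321 several and 11799 none, and only the first kind was used. The brightest such probeset over all arrays stood for a gene, which left 19937 genes. Differences between labels, and slopes on a member's level or on a list's mean, were fitted with limma 3.58.1 in R 4.3.3 over all genes (lmFit and eBayes, Benjamini-Hochberg, threshold 0.05). The fits were tested on simulated data with known changes. Permutation tests were two-sided, with 100000 resamples for 9 or more arrays and exact for 8. Nothing in the sources says whether replicates are separate animals, so p-values measure the spread between these samples, which may be technical. With 18 arrays, their number limits the precision.

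The members and the gene lists were chosen with earlier results of these data known. Named were the members, Wfs1, the 3 genes with the highest r for each member above the lower quartile of gene means (predicted genes passed over), and genes of the receptor, supply and target lists. Dbp, Hlf, Tef and Olfr960, and the target and upstream genes singled out, were picked after their values were seen. Alternatives were quantile normalization, median centring, the mean of a gene's probesets, leaving out the dimmest 40% of genes, residuals from the label groups, and leaving out each array or both that stand apart. The median centring, probeset mean and leave-one-out settings for list means were added after seeing the data.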

Additional observations from a re-analysis of the deposited data

Results flagged for a closer look

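Within the label pairs, 36 groups of 4 or 5 arrays (9 members in 4 groups) were searched for a single array far from the rest, and 3 were found, where chance gives about 1 in 20. Sgk1 read 8.34 on ko/WT 2, 0.79 below the next ko/WT array in a group range of 0.98, and Nfkbia was also lowest on that array, at 7.78. Zbtb16 read 8.90 on wt/WT 1, 0.63 above the next in a range of 0.71, and Sgk1 was highest on the same array, at 9.41. Mt2 read 11.27 on wt/KO 4, 0.11 below the next in a range of 0.13, which was the narrowest range of Mt2 in any group.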

How the results depend on the processing

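Of 734 values recomputed under an alternative, 689 kept their direction and side of the threshold, and 21 changed sign. Many of the 734 were counts of 0 or label differences far from the threshold, so their side of it could hardly change. The cause was not tested for any change below. The median r over member pairs moved to 0.508 within the arrays over 8.2 in Wfs1 and was 0.317 within those under it. The 1 member pair called became 0 without both arrays that stand apart and 0 in residuals from the label groups, and ranged from 0 to 2 with 1 array left out. It was 2 without the dimmest 40% of genes, where fewer genes were tested, an alternative added after seeing the data. It was also 2 without ko/KO 1, ko/KO 5, ko/WT 2 or wt/WT 2, when Pdk4 or Mt2 was called too. The 2 member calls by list mean became 1 with quantile normalization, which kept neither, 8 with median centring and 5 without both arrays that stand apart, and ranged from 0 to 5 with 1 array left out. The r of Fkbp5 with Sgk1 ranged from 0.443, without ko/KO 2, to 0.666 with 1 array left out. The r of Fkbp5 with Tsc22d3 was -0.032 in residuals and -0.183 without both arrays that stand apart, and -0.093 to 0.125 with 1 array left out.

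By title ending, Pdk4 turned to 0.0015 with median centring. With 1 array left out, Pdk4 ranged from -0.041 to 0.044, Sgk1 from -0.069 to 0.050 and Mt2 from -0.0021, without ko/WT 3, to 0.090. The sign of Pdk4 turned without ko/KO 2, ko/KO 3, ko/KO 5, ko/WT 2, wt/KO 3 or wt/WT 1. By genotype field, Mt1 turned to 0.000952 without both arrays that stand apart and ranged from -0.056 to 0.0092, turning without ko/WT 3. Fkbp5 ranged from -0.047 to 0.011, turning without ko/KO 2 or ko/WT 3. Median centring made 679 genes called with Errfi1 as covariate (451 rising, 228 falling) against 0, and 223 were called with it without wt/KO 4 (63 rising, 160 falling). Quantile normalization gave 9 with Zbtb16 against 0. In the 5 label comparisons 0 genes were called by limma in every alternative. No paired analysis was possible because each title carries numbers of its own, so the groups share none. Detection calls and signal over background were not analysed here.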

Other observations

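Among lists not described above, ERBB receptors and their feedback genes had a mean that ran with Pdk4 (r = 0.644, limma adjusted p = 0.541) and Klf9 (r = 0.610, limma adjusted p = 0.639), with 0 members called beside 0.0% of all genes. Within that list Dusp6, a phosphatase gene that turns off ERK, was closest to the mean of the standardized members, at r = 0.615. The mean of 11 measured p53 targets had r = 0.658 with Errfi1 (limma adjusted p = 0.055), in a fit that called 5.31% of all genes. The mean of the 6 metal response genes had r of 0.488 with Klf9, 0.474 with Mt2 and 0.374 with Mt1, with 0 called. Slc39a14, a zinc importer gene, was its closest gene to the members, at r = 0.501, and Mt3, the brain metallothionein, had r = 0.212. Opalin, an oligodendrocyte marker, ran against the members at r = -0.590, while Mag, a marker of the same cells, had r = 0.333.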
